A study of Homo sapiens with 6 samples.

Results

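INS, IAPP, IGF2, UCN3 and SCT encode peptide hormones and growth factors that are made by, or known from, pancreatic islets and neighbouring endocrine tissue. These 5 genes were taken by symbol from the 16792 genes of a table of RNA levels in the human beta cell line EndoC-βH1 (EndoCBH1 in the labels), which comes from fetal pancreas and was immortalised with viral and telomerase genes. The table holds 6 libraries. In 3 of them the cells (genotype WT in the labels) had received a non-targeting siRNA (siNT), and in the other 3 (MNX1 knock down in the labels) an siRNA against the homeobox factor MNX1 (siMNX1). The study asked whether MNX1 keeps somatostatin low in human beta cells. All cells are of 1 line, with no time after transfection, siRNA sequence or separate culture given, so the spread between libraries may be technical and p-values measure only that spread.

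Beta cells make insulin as a long precursor that is folded in the endoplasmic reticulum, cut by the convertases PCSK1 and PCSK2, trimmed by CPE and stored in granules beside granins. IAPP, or amylin, is a calcitonin-family peptide that is cut by the same enzymes, stored with insulin and known for forming islet amyloid. IGF2 is a fetal growth factor of the insulin family, expressed from the paternal allele, whose gene lies just downstream of INS. UCN3 is a peptide of the corticotropin-releasing factor family that beta cells release and that acts on delta cells. SCT encodes secretin, the duodenal hormone that drives bicarbonate secretion.

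The promoters of INS and IAPP are shown because homeobox factors read a short TAAT core and both promoters are known for such elements. Promoters of IGF2, UCN3 and SCT were missing from the reference used here, so their matches are not known. The sequences are the 250 bases before the RefSeq start site (GRCh38.p14), 5′ to 3′ on the gene's strand, with TAAT or its reverse complement ATTA in capitals. The INS window is chr11:2161210-2161459, minus strand. The GENCODE start of INS used below (2161341) lies 132 bases upstream of this RefSeq start, so part of the window lies inside INS as placed there. The IAPP window is chr12:21372652-21372901, plus strand, before the second of the 2 start sites listed for the gene.
INS: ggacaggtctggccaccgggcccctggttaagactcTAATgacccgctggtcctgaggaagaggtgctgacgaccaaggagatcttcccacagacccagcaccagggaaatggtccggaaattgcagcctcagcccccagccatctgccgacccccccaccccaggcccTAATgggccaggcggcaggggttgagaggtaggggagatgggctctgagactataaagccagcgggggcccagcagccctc
IAPP: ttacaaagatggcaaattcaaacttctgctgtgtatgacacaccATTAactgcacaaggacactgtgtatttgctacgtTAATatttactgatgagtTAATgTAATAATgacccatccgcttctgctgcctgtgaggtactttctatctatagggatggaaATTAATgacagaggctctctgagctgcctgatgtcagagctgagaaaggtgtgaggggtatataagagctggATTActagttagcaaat
The INS window held 2 matches and the IAPP window 8, counting both strands and overlapping matches. The window before the other IAPP start held 2. At least 1 match was present in 47.4% of the 35116 windows of this length in the RefSeq table, at least 2 in 27.6% and at least 8 in 1.12%. A and T made up 59.6% of the IAPP window and 36% of the INS window. The longer core TAATTA, present in 4.35% of windows, was in neither, and the E box CANNTG, present in 61.8%, occurred 1 time in the INS window and 0 times in this IAPP window. These are matches of letters and not measured binding.

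Values are the authors' normalized counts, and group values are mean ± SD with n = 3. INS was the fourth most abundant gene of the table by mean normalized count. Its share of all deposited counts was 0.597% ± 0.0227 in siNT and 0.676% ± 0.0317 in siMNX1. Per kb of annotated exon, INS had 142447 ± 4843 normalized counts in siNT, IGF2 4950.4 ± 285, SCT 3291 ± 193, UCN3 326 ± 15.7 and IAPP 26.7 ± 7.41. Each gene in that order lay above the next by more than the SDs. In siMNX1 the order was the same, with 161580 ± 7287, 5793 ± 170.2, 3560.4 ± 43.1, 459 ± 16.6 and 7.06 ± 1.73. The exon length covers all annotated isoforms, so these levels are approximate, most of all for IGF2 with 6979 bases of exon against 776 for INS.

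Deposited totals ran from 18406479 to 18704645 per library and follow the normalization. MNX1, the siRNA target, had 2039, 2033 and 1988 normalized counts in siNT and 1885, 1708 and 1751 in siMNX1 (log2 fold change -0.18, limma, adjusted p = 0.116), so every siMNX1 library was below every siNT library but the difference did not pass the threshold. Mitochondrial transcripts took 5.39% to 6.81% of the siNT totals and 5.43% to 6.49% of the siMNX1 totals, ranges that overlap. On the second principal component siMNX1 replicate 2 stood apart, at 17.9 against -9.59 to 6.78 for the other 5 libraries. All 9 genes of a beta cell marker list were measured, at levels from that of INS down to NKX6-1 and IAPP, placed 11727 and 13824 of 16792 genes. Their summed level was 131977 to 139790 in siNT and 142168 to 153491 in siMNX1, most of it INS. Of the 9, limma called 2 higher (UCN3 and MAFA) and 2 lower (G6PC2 and IAPP) at an adjusted p under 0.05. Their median log2 fold change was -0.0158. Of all genes, 1.99% were called higher and 1.33% lower. In this bulk RNA, fewer cells of a type and less RNA per cell cannot be told apart.

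With MNX1 siRNA, IAPP fell 3.78-fold, UCN3 rose 1.41-fold and IGF2 rose 1.17-fold, while the means of INS (1.13-fold) and SCT (1.08-fold) were higher without passing the threshold. Thus 3 of the 5 genes passed an adjusted p of 0.05 (limma, adjusted over all genes), where 3.32% of all genes did, 1.99% as higher and 1.33% as lower. For all 5 genes the groups did not overlap, as was so for 24.0% of all genes. All 5 passed the filter on low values, which removed no gene. The counts come from genes chosen with earlier results of these data known, so they describe these 5 genes.

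**Figure D1:**
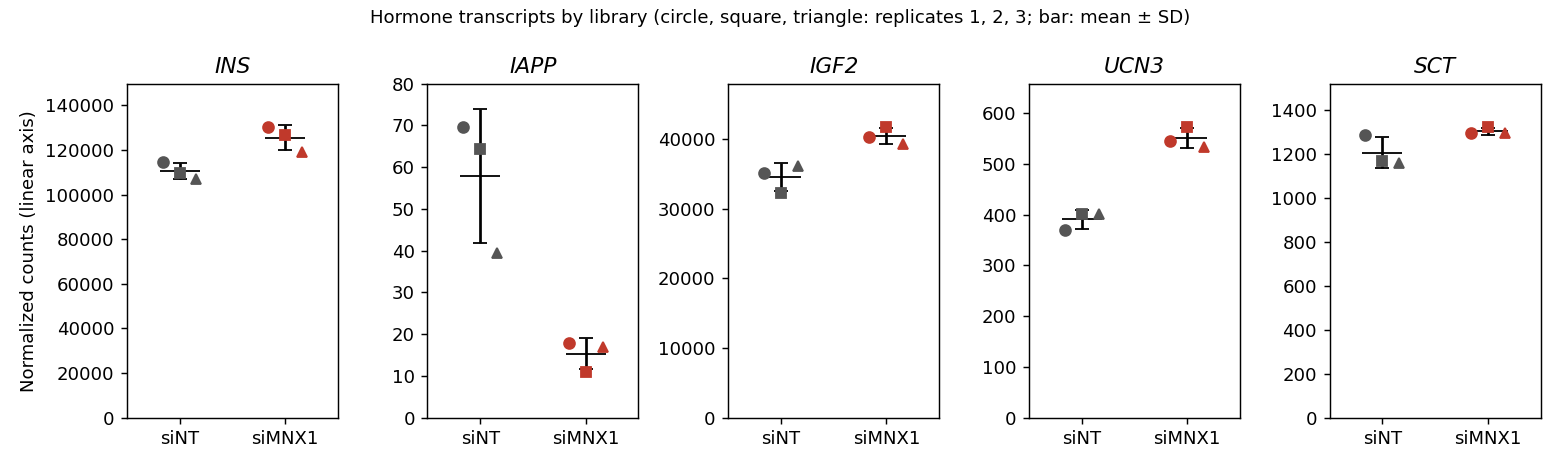
Normalized counts (linear axis from 0) of the 5 hormone genes in each library, grey for siNT and red for siMNX1, with the marker shape giving the replicate and bars the mean ± SD. The 3 IAPP values of siMNX1 (11.0 to 18.0) lie below those of siNT (39.5 to 69.6), and the 3 UCN3 values of siMNX1 (533 to 573) lie above those of siNT (369 to 402).

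INS (ENSG00000254647) lies on the minus strand of chromosome 11 from 2159779 to 2161341 (GRCh38, as for all positions here). In the order of replicates 1 to 3, used throughout, its normalized counts were 114592, 109855 and 107169 in siNT, and 130171, 126840 and 119146 in siMNX1. The lowest siMNX1 library was above the highest siNT library by less than the siMNX1 SD of 5655. The log2 fold change was 0.18 (SE 0.046, 95% interval 0.08 to 0.28), which did not pass (limma, adjusted p = 0.0656). In fold terms the interval runs from 1.06 to 1.22. Of 18 alternatives, 1 called it, the robust variance model, at an adjusted p of 0.0314.

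INS shares its promoter and exons with INS-IGF2, a readthrough gene that runs from INS into IGF2. INS-IGF2 overlaps INS by 1431 bases and IGF2 by 17066 bases on the same strand, and how the counting split such reads is not given in the sources used here. INS-IGF2 had 254, 256 and 314 normalized counts in siNT and 333, 306 and 283 in siMNX1, with overlapping groups. The difference, 0.17 on the log2 scale, was not called (limma, adjusted p = 0.489). For each 100000 INS counts there were 249 ± 38.4 INS-IGF2 counts in siNT and 245 ± 9.42 in siMNX1. With the readthrough counts added to INS the log2 fold change stayed at 0.18 (limma, adjusted p = 0.0653).

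IAPP (ENSG00000121351, chromosome 12, 21354959 to 21379978, plus strand) had 69.6, 64.4 and 39.5 normalized counts in siNT and 18.0, 11.0 and 16.9 in siMNX1. Every siMNX1 library was below every siNT library, and siNT replicate 3 was the lowest of its group. The mean fell from 57.8 ± 16.1 to 15.3 ± 3.76, which is the 3.78-fold difference above (log2 fold change -1.84, SE 0.303, 95% interval -2.52 to -1.16, limma, adjusted p = 0.0123). Of the 223 genes called lower, IAPP had the third most negative log2 fold change.

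IAPP was the least abundant of the 5 genes, placed 13824 of 16792 by mean level. In each library, 25.8% to 47.4% of values under 10 lay near multiples of a best step of 0.847 to 1.2 normalized counts. That step is at most a rough size for 1 read, by which the siMNX1 values rest on few reads. Its pooled within-group SD was 0.398 on the log2 scale, larger than in 70.4% of the 1667 genes with a mean within 1.5-fold of its own. Leaving out siNT replicate 1 or siNT replicate 2 took the adjusted p of IAPP to 0.0583 or 0.0671, and dropping the variance trend took it to 0.0529, while the log2 fold change stayed between -2.09 and -1.61 over all 16 alternatives.

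UCN3 (ENSG00000178473, chromosome 10, 5365009 to 5374692, plus strand) had 369, 402 and 401 normalized counts in siNT and 546, 573 and 533 in siMNX1. Libraries of a group lay close together and the groups were well apart. The mean rose from 391 ± 18.8 to 551 ± 20.0 (log2 fold change 0.49, SE 0.078, 95% interval 0.32 to 0.67, limma, adjusted p = 0.0105). Its pooled within-group SD was 0.0617 on the log2 scale, and 13.0% of the 2978 genes of like level had a smaller one. UCN3 passed in all 17 alternatives, with adjusted p from 0.0085 to 0.0438 and, with 1 library left out, log2 fold changes of 0.45 to 0.52. It was the only one of the 5 genes of which that held.

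IGF2 (ENSG00000167244, chromosome 11, 2129112 to 2149603, minus strand) had 35179, 32322 and 36146 normalized counts in siNT and 40257, 41698 and 39342 in siMNX1. All siMNX1 libraries were above all siNT libraries. The mean rose from 34549 ± 1989 to 40432 ± 1188 (log2 fold change 0.23, SE 0.049, 95% interval 0.12 to 0.34, limma, adjusted p = 0.0392). This call was lost whichever of the 6 libraries was left out, with adjusted p between 0.0679 and 0.124, and without the variance trend (adjusted p = 0.2), while the log2 fold change stayed between 0.18 and 0.26. With the counts of INS-IGF2 added it was 0.23 (adjusted p = 0.0397).

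IGF2-AS, an antisense gene inside IGF2, had 388, 449 and 364 normalized counts in siNT and 454, 493 and 515 in siMNX1 (log2 fold change 0.29, limma, adjusted p = 0.16). Its 8166 bases lie wholly within IGF2 on the opposite strand, and without knowledge of strand handling the reads of this pair cannot be told apart. H19, the maternally expressed RNA that shares an imprinting control region with IGF2, had 5190, 3933 and 3939 in siNT and 3940, 3741 and 4342 in siMNX1. The H19 groups overlapped and siNT replicate 1 was the highest library (log2 fold change -0.11, limma, adjusted p = 0.623).

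SCT (ENSG00000070031, chromosome 11, 626431 to 627143, minus strand) had 1286, 1169.5 and 1158 normalized counts in siNT and 1293, 1321 and 1295 in siMNX1. The lowest siMNX1 library exceeded siNT replicate 1 by a margin far smaller than the siNT SD of 70.7. The log2 fold change was 0.12 (95% interval -0.02 to 0.25) and did not pass (limma, adjusted p = 0.361), nor in any of 17 alternatives (adjusted p from 0.26 to 0.623). In fold terms the interval runs from 0.984 to 1.19. Of 8 listed markers of gut endocrine cells, 3 were measured, SCT, NTS and TPH1, and limma called 0 of them, with 0 at an unadjusted p under 0.05. Of all genes, 18.4% had an unadjusted p under 0.05, 9.81% as higher and 8.56% as lower.

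**Figure D2:**
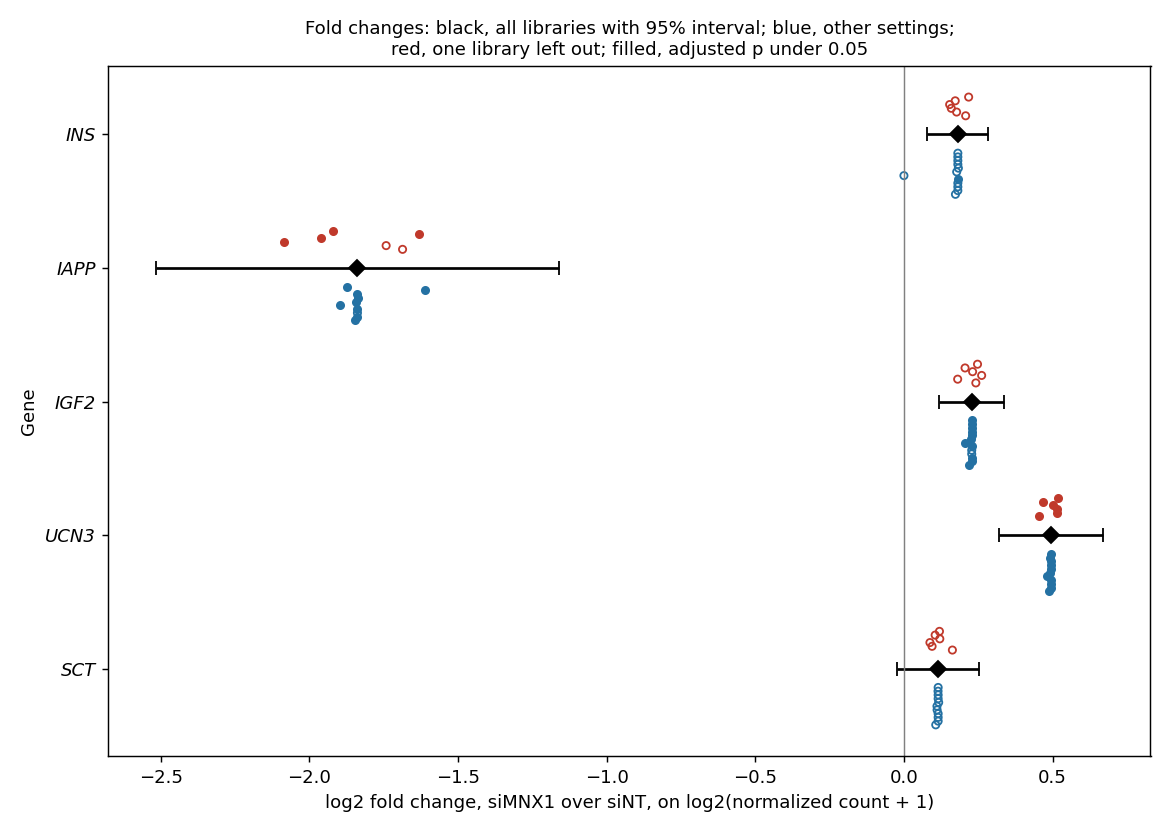
Log2 fold change (siMNX1 over siNT, horizontal axis) of each hormone gene, with all libraries and its 95% interval in black, under other settings in blue and with 1 library left out in red, filled where the adjusted p was under 0.05. UCN3 is filled throughout, IGF2 is open in all 6 left-out cases, and the INS point at 0 is the quantile normalization.

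Ratios between the plain counts of the hormones within a library are unchanged by any scaling that applies 1 factor to each library, which quantile normalization does not. For each 100000 INS counts there were 60.7, 58.6 and 36.9 IAPP counts in siNT and 13.8, 8.68 and 14.2 in siMNX1, with no overlap. UCN3 counts for each 100000 INS counts were 322, 366 and 374 in siNT and 420, 451 and 448 in siMNX1, also without overlap. IGF2 counts for each 100 INS counts were 31.3 ± 2.21 and 32.3 ± 1.17, and those groups overlapped. In the same libraries INS outnumbered SST, the somatostatin transcript that the study is about, 505 ± 53.1 to 1 in siNT and 146 ± 2.50 to 1 in siMNX1. SST itself had 207, 215 and 239 normalized counts in siNT and 881, 862 and 832 in siMNX1, and rose (log2 fold change 1.96, limma, adjusted p = 3.97e-06).

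All 10 pairs of the 5 genes were compared by the log2 ratio in each library, with 1 added to each value. The added 1 lets library scaling enter these ratios slightly, most of all at low values such as those of IAPP. INS over IAPP had mean log2 ratios of 10.9 in siNT and 12.9 in siMNX1, a difference of 2.02. IAPP over IGF2, UCN3 and SCT differed by -2.07, -2.33 and -1.95 (siMNX1 minus siNT). UCN3 was higher relative to the other 3, with differences of -0.31 for INS over UCN3, -0.27 for IGF2 over UCN3 and 0.38 for UCN3 over SCT. In these 7 pairs the groups did not overlap (exact two-sided permutation test, p = 0.1 each, adjusted p = 0.143 over 10 pairs). Each of the 7 holds IAPP or UCN3, so they are not 7 separate results. The smallest p that 3 against 3 libraries allow is 0.1, so none can pass. The ratios among INS, IGF2 and SCT overlapped between groups, with differences of -0.05 for INS over IGF2, 0.07 for INS over SCT and 0.11 for IGF2 over SCT (exact permutation p = 0.6, 0.3 and 0.3, adjusted p = 0.6, 0.333 and 0.333).

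**Figure D3:**
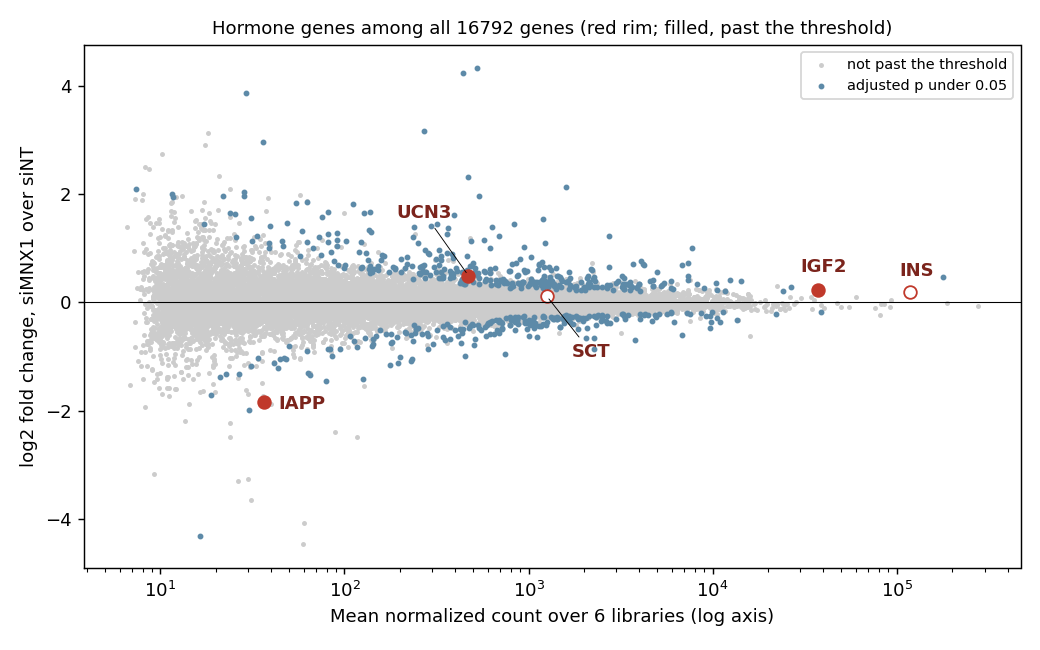
Log2 fold change (siMNX1 over siNT) against mean normalized count over the 6 libraries (log axis) for all 16792 genes, with genes past the threshold in blue and the 5 hormone genes in red, filled where they passed. IAPP sits low at the sparse end, at -1.84, and INS (0.18) and IGF2 (0.23) sit just above 0 at the abundant end.

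Related hormones and their receptors were taken from lists, described here by counts beside those of all genes. These lists and those below were chosen with earlier results of these data known, so their counts only describe them. Of all genes, 1.99% were called higher and 1.33% lower, with a median log2 fold change of -0.00045. Of 24 relatives of the 5 hormones, 11 were measured, and the 2 higher and 1 lower calls were UCN3, IGF2 and IAPP themselves (median 0.12). Relatives beyond the 5 genes had low counts, such as ADM2 (141 ± 11.4 and 134 ± 6.98), ADM (133 ± 4.10 and 128 ± 22.3) and UCN (15.1 ± 2.46 and 14.8 ± 4.90), named after their values were seen, and none of these passed.

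Of 16 receptors and signalling partners of these hormones 10 were measured and limma called 0 of them, with 3 higher and 1 lower at an unadjusted p under 0.05, where 9.81% and 8.56% of all genes were (median 0.13). IGF2R, which carries IGF2 to lysosomes, had 2933 ± 125 and 3331 ± 574, and IGF1R, which signals for IGF1 and IGF2, had 1352 ± 68.8 and 1591 ± 211. The amylin receptor is the calcitonin receptor CALCR joined to a RAMP protein, and both parts are named after their values were seen. CALCR had 3.78, 6.77 and 7.34 normalized counts in siNT and 16.6, 14.8 and 16.4 in siMNX1 (log2 fold change 1.32, limma, adjusted p = 0.101). RAMP1 had 84.5, 94.5 and 82.9 in siNT and 126, 122 and 116 in siMNX1 (log2 fold change 0.47, limma, adjusted p = 0.096). For both genes the groups did not overlap, as was so for 24.0% of all genes, and neither passed. CALCR was among the least abundant genes, placed 16401 of 16792 by mean level, so its values rest on few reads. SCTR, the secretin receptor, had 53.4 ± 5.31 and 56.2 ± 9.04.

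Of 16 genes that bind, release or regulate IGFs, 9 were measured, and limma called 0, with 0 at an unadjusted p under 0.05 (median 0.06). IGFBP2, a binding protein of both IGFs, had 2449.6 ± 259 and 2661 ± 201, and IGFALS, which stabilises circulating IGF complexes, had 1409.9 ± 89.3 and 1552 ± 103. Among 24 imprinted genes, 19 were measured, with 2 higher and 1 lower (median -0.0041), against 1.99% and 1.33% of all genes. MAGEL2, a gene of the Prader-Willi region, rose from 1307 ± 61.7 to 1615 ± 40.9, and IGF2 was the other higher gene. CDKN1C, a cell cycle inhibitor expressed from the maternal copy of the same chromosome arm as IGF2, fell by 0.38 on the log2 scale, from 3114 ± 320 to 2392 ± 111 (limma, adjusted p = 0.0268). Leaving out 1 library ended the MAGEL2 call in 4 of 6 cases (siNT replicates 2 and 3, siMNX1 replicates 1 and 2, adjusted p up to 0.112) and the CDKN1C call in 4 of 6 (siNT replicates 1 and 2, siMNX1 replicates 1 and 2, up to 0.0916). Both were also lost without the variance trend (0.099 and 0.14) and with replicate number as a block (0.0725 and 0.0705).

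Enzymes that mature the hormones were higher or not called. All 21 folding and conversion genes were measured, with 3 higher and 0 lower (median 0.03), against 1.99% and 1.33% of all genes. PCSK2 had the clearest change, at 1337 ± 94.6 and 1963 ± 87.7 (limma, log2 fold change 0.56, adjusted p = 0.00243), and passed in all 6 left-out cases. PCSK1 rose from 2636 ± 121 to 3481 ± 344 and PCSK1N, which encodes the PCSK1 inhibitor proSAAS, from 23908 ± 1506 to 29226 ± 999. The PCSK1 call ended without any 1 of the siNT libraries or siMNX1 replicate 1 (adjusted p up to 0.108), and that of PCSK1N when siMNX1 replicate 1, siNT replicate 2 or siNT replicate 3 was left out (up to 0.0973). Without the variance trend both ended too (0.129 and 0.138). PAM, which amidates IAPP, had 922 ± 51.0 and 932 ± 62.0, and CPE had 11225 ± 368 and 12635 ± 517. Both are named after their values were seen, and neither passed.

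Of 15 storage and breakdown genes, all measured, 4 were higher and 1 was lower (median 0.08), against 1.99% and 1.33% of all genes. CHGA, the most abundant granin, rose from 150359 ± 2094.5 to 208161 ± 6547 (log2 fold change 0.47, against 0.18 for INS). VGF, another granule peptide precursor, rose from 377 ± 32.1 to 599 ± 36.2, and the granule membrane protein gene PTPRN from 6262 ± 218 to 8379 ± 143. BACE2, a protease of beta cells, was lower at 997 ± 43.4 against 1348 ± 32.9 (limma, log2 fold change -0.44, adjusted p = 0.00488). These 4 calls held with each library left out. The remaining higher gene was the granin CHGB, at 8117 ± 190 and 9722 ± 324. SLC30A8, the granule zinc transporter needed for insulin crystals, had 1118 ± 101 and 1282 ± 79.3 and did not pass, and it is named after its values were seen.

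All 24 transcription factors of the insulin gene were measured, with 4 higher and 0 lower (median 0.01), against 1.99% and 1.33% of all genes. RFX6, a factor required for islet development, rose by 0.71 on the log2 scale, from 2784 ± 14.8 to 4565 ± 81.1 (limma, adjusted p = 4.1e-05). MAFA, which binds the insulin enhancer, rose from 354 ± 38.4 to 519 ± 5.41, RFX3 from 723 ± 63.9 to 1034 ± 114 and FOXO1 from 811 ± 39.1 to 1056 ± 112. The calls of MAFA and RFX3 ended in 3 of 6 left-out cases each (siNT replicates 2 and 3, siMNX1 replicate 1, adjusted p up to 0.0699 and 0.0826), and that of FOXO1 in all but the case without siMNX1 replicate 3 (up to 0.149). All 3 also ended without the variance trend (0.0592, 0.112 and 0.149). With replicate number as a block, the calls of RFX3 and FOXO1 ended (0.0732 and 0.108). PDX1, which binds TAAT elements of the INS and IAPP promoters, had 8493 ± 104 and 8215 ± 106, and NKX6-1 had 114, 112 and 96.1 in siNT and 109, 118 and 78.6 in siMNX1. Neither passed, and both are named after their values were seen.

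Genes known to mark beta cell maturity moved both ways. Of 20 listed genes, all measured, 5 were higher and 2 lower (median 0.07), against 1.99% and 1.33% of all genes. UCN3, MAFA, PCSK1, CHGA and the vesicle protein gene SYT4 (log2 fold change 0.73) rose, while IAPP and G6PC2, a glucose-6-phosphatase of beta cells, fell, G6PC2 from 10966 ± 758 to 8540 ± 237 (its call ended without the variance trend, at an adjusted p of 0.0949). Of 16 genes of immature or dedifferentiated beta cells 8 were measured, with 0 higher and 1 lower (median -0.13). RBP4, a retinol carrier, fell from 981 ± 26.8 to 507 ± 54.5. These 2 lists share members with the others, and UCN3 and IAPP belong to the 5 hormone genes themselves.

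Delta cell markers also differed between the groups, with 7 of 8 listed markers measured. Of these, 3 were higher and 2 lower, against 1.99% and 1.33% of all genes. Their summed level was 8062 to 8321 normalized counts in siNT and 10506 to 11794 in siMNX1. Most of that sum was CASR, the calcium-sensing receptor, at 6112 ± 87.1 and 8607 ± 656 (its call ended without the variance trend, at an adjusted p of 0.0525). SST and the transcription factor HHEX (54.1 ± 10.6 and 484 ± 24.4) were the other higher markers. The 2 lower ones were RBP4 and the fatty acid receptor FFAR4 (715 ± 54.5 and 464 ± 22.6), FFAR4 being named after its values were seen. Of the markers of other cell types, alpha cell markers gave 2 higher and 2 lower of 8 measured (sums of 26610 to 27766 and 25766 to 26819), and gamma and epsilon cell markers 1 and 2 of 4 (1147 to 1236 and 1268 to 1287). Acinar, ductal and mesenchymal, endothelial or immune markers gave 0 calls by limma among 2, 3 and 3 measured genes, with 0, 1 and 2 at an unadjusted p under 0.05 (18.4% of all genes). In every list, 0 of the measured markers were at 0 in all libraries. Their part in the levels of the 5 hormones was not tested.

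**Figure D4:**
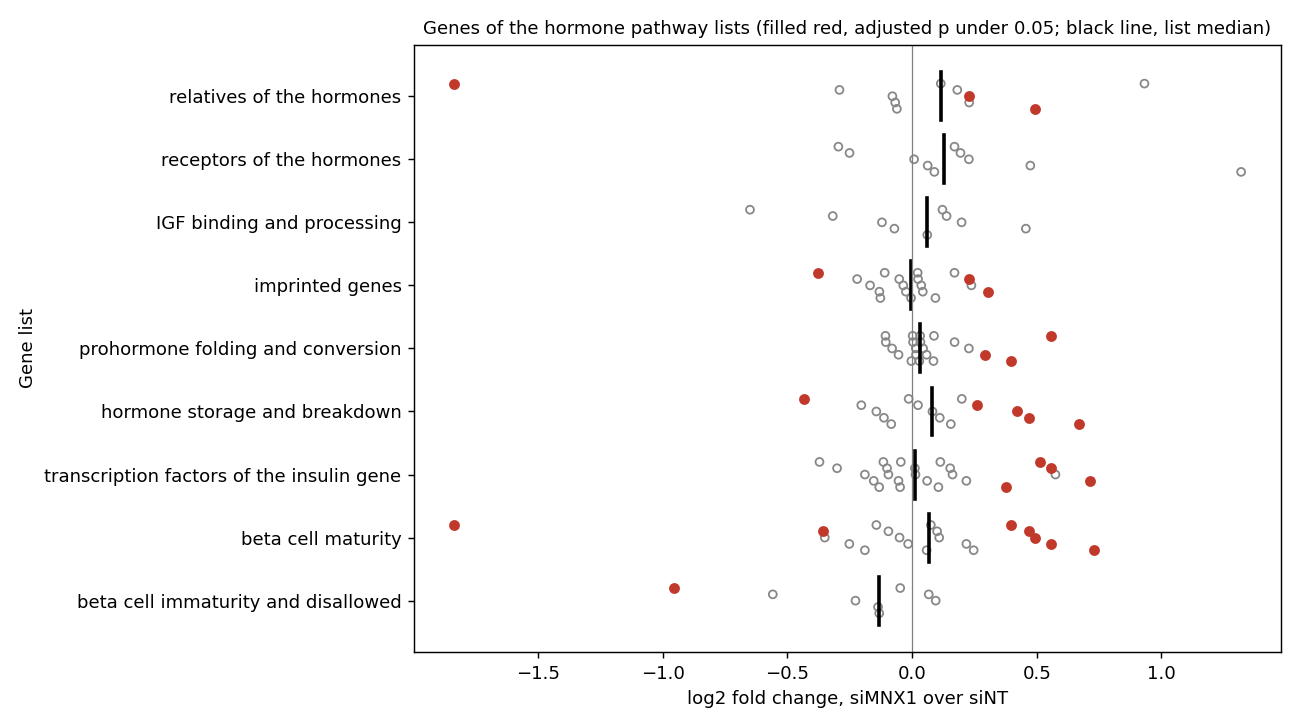
Log2 fold change (siMNX1 over siNT) of every measured gene of the 9 hormone pathway lists, filled red where the adjusted p was under 0.05, with the list median as a black line. Over all lists, counting each gene 1 time, 15 of 125 genes were higher and 5 lower, against 1.99% and 1.33% of all genes. The 15 include UCN3 and IGF2 and the 5 include IAPP. The hormone genes and all the lists were chosen with earlier results of these data known, so the counts only describe them.

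Genes near the hormone genes were examined by the distance between start sites, up to 250 kb. Around INS 17 genes were tested, with a median log2 fold change of 0.21, the value of an entry inside IGF2. INS-IGF2, IGF2-AS and other entries of this window overlap INS or IGF2 and can share their reads. Of the 17, 3 were higher and 0 lower, against 1.99% and 1.33% of all genes. The 3 were IGF2, C11orf21 (1815 ± 85.9 and 2199.5 ± 140.1, 142 kb upstream of INS) and the long noncoding RNA MRPL23-AS1 (807 ± 49.5 and 1053 ± 54.9, 171 kb downstream). C11orf21 was called in 1 of 6 left-out cases, that without siMNX1 replicate 2 (otherwise up to 0.177), and MRPL23-AS1 in 3 of 6 (not without siNT replicates 2 or 3 or siMNX1 replicate 3, up to 0.108). C11orf21 was also lost with libraries scaled to equal totals (0.0526) and after quantile normalization (0.0648), and both without the variance trend (0.166 and 0.0912). Replicate number as a block ended both calls too (0.128 and 0.0779). TH, the tyrosine hydroxylase gene just upstream of INS, named after its values were seen, had 25.5 and 22.7 and did not pass. Around IGF2 the 15 tested genes gave 2 higher and 0 lower, C11orf21 and MRPL23-AS1.

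Around IAPP, limma called 0 of 3 tested neighbours, of which 1 had an unadjusted p under 0.05 (18.4% of all genes). Their median was 0.28, that of a gene high only in siMNX1 replicate 1 (1073, against 533 and 511 in siMNX1 replicates 2 and 3). IAPP itself was the sole tested gene called within 250 kb. Within 500 kb, 1 of 4 tested genes was called, LDHB, 403 kb away and named after its values were seen. LDHB was lower, at 775.5 ± 8.48 in siNT and 519 ± 49.0 in siMNX1 (log2 fold change -0.58, limma, adjusted p = 0.00549). Around UCN3, 1 of 3 was lower, AKR1C4 (129 ± 3.16 and 84.0 ± 9.75, 170 kb away), a steroid-converting enzyme whose near-identical relatives can share its reads and whose call was lost whichever library was left out (adjusted p between 0.0626 and 0.15). Around SCT 30 genes were tested, with 1 higher and 2 lower, against 1.99% and 1.33% of all genes. RNH1, an inhibitor of ribonucleases, fell from 2164 ± 91.0 to 1542 ± 37.2 and held in 6 of 6 left-out cases, while the calls of PIDD1 (log2 fold change -0.33) and CEND1 (0.52) ended in 5 and 4 of them (adjusted p up to 0.127 and 0.102). PIDD1 remained called only without siMNX1 replicate 3, and CEND1 without siNT replicate 2 or siMNX1 replicate 2. With replicate number as a block, the calls of AKR1C4, PIDD1 and CEND1 ended (limma, adjusted p = 0.106, 0.0772 and 0.0723). Those of AKR1C4 and PIDD1 also ended without the variance trend (0.0585 and 0.152).

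**Figure D5:**
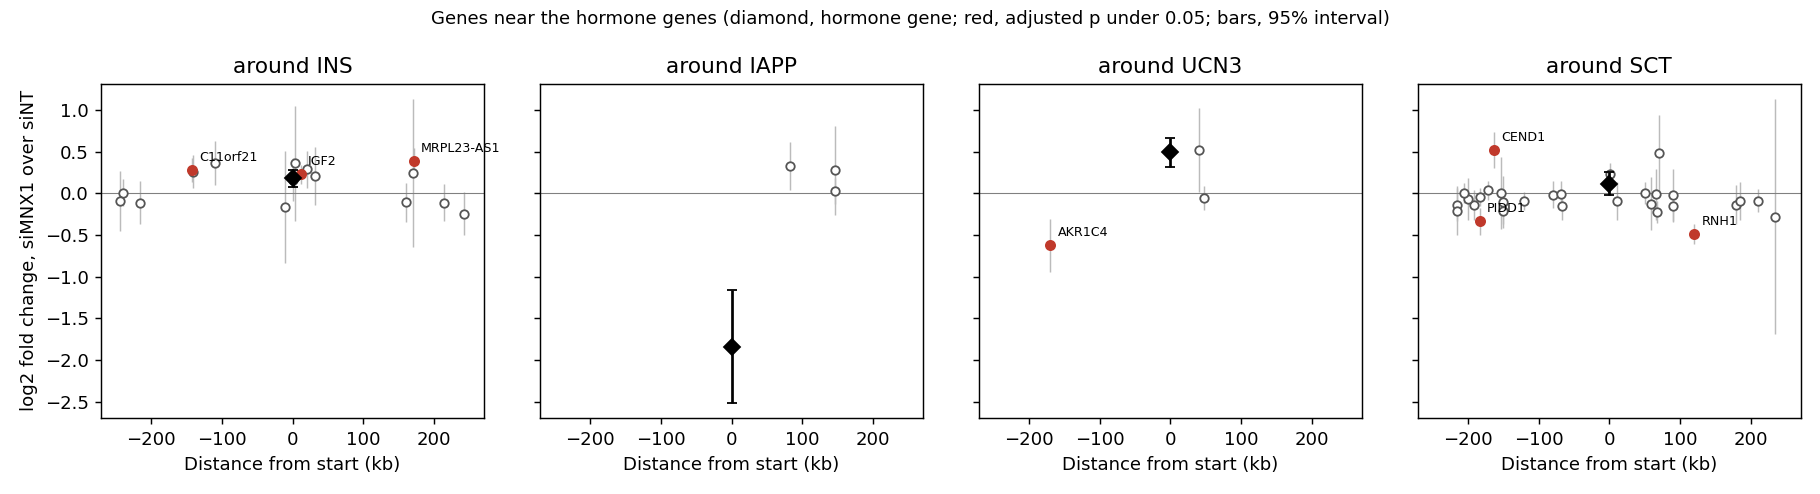
Log2 fold change (siMNX1 over siNT) with 95% intervals of tested genes against the distance of their start from that of INS, IAPP, UCN3 or SCT (kb, positive in the direction of transcription), with the hormone gene as a black diamond and called genes in red. The IAPP diamond lies at -1.84, and its 3 tested neighbours lie from 0.03 to 0.32, with none called.

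Genes with the most similar profile were sought among 12678 named genes with a mean of at least 50, by Pearson correlation of log2 values over the 6 libraries. With 6 points that fall into 2 groups, high values are common, and 33 to 187 genes reached 0.95 with a given hormone. INS was most like VOPP1, DPH3 and DPH5-DT (r = 0.992, 0.992 and 0.989). IAPP was most like FAM162A, PRR5L and DGAT2 (r = 0.995, 0.995 and 0.994), and IGF2 was most like TP53INP1, ZBTB4 and NINJ2-AS1 (r = 0.992, 0.992 and 0.991). UCN3 was most like the cadherin gene CDH2, ZNF268 and FGF14 (r = 0.997, 0.997 and 0.996). FGF14 rose from 624 ± 57.4 to 1264 ± 99.8 (limma, adjusted p = 0.000332). SCT was most like LRRC10B, UFM1 and ASCL2 (r = 0.996, 0.987 and 0.983), the last of which lies near INS.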

How the data were processed

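RNA of 6 libraries was measured by sequencing, with groups and replicate numbers taken from the sample titles. The authors deposited normalized counts, a signal per gene with decimals, and the scaling method is not stated. Tools named in the submitters' processing notes are RSEM 1.3.1, STAR 2.7.6a, DESeq, DESeq2 1.26.0 and R 3.6.3, with the build GRCh38 and no roles. For strand handling, annotation release and gene filter, the sources used here give nothing. Libraries were made from total RNA by the Ovation Solo kit with rRNA depletion, per the labels' protocols, while the molecule field names polyA RNA. Read depth is unknown: only 25.8% to 47.4% of values under 10 lay within 0.02 of a whole multiple of the best step, so no count model was fitted.

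Values were fitted as log2(value + 1) in R 4.3.3 by limma 3.58.1, using a variance trend, on all 16792 genes (a minimum mean of 5 removed none), and p-values were Benjamini-Hochberg adjusted over all of them. Log2 fold changes are on that scale, which understates changes of low genes, while values written as N-fold are ratios of group means. No pair of libraries held identical values. Positions and exon lengths came from GENCODE 29 (GRCh38). Python 3.11.15, numpy 2.4.6, pandas 2.3.3 and scipy 1.17.1 were used, and the fit was tested on simulated data. The members and lists were chosen with earlier results of these data known. Genes named were the 5 members, MNX1, SST, up to 4 called genes per list (else the 2 most abundant), called neighbours within 250 kb and the 3 most similar profiles, and others are stated to be outside this rule or are INS-IGF2, IGF2-AS, H19, SCTR, CHGB and TPH1, also named with their values known. Some genes that the rule took among markers of other cell types are given only as counts. Alternatives were other pseudocounts, filters, scalings and variance models, a replicate block, a wider window and each library left out. Adding readthrough or antisense counts and equal non-mitochondrial totals were chosen after seeing the data.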

Additional observations from a re-analysis of the deposited data

How the results depend on the processing

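Directions of the 5 hormone genes were kept in every setting tried, except that INS was 0 on the log2 scale after quantile normalization, where its rank of 4 in each of the 6 libraries gives it the same value by construction. A robust variance model gave INS a call (0.18, adjusted p = 0.0314). Without the variance trend IAPP (-1.84) and IGF2 (0.23) lost their calls, and with the replicate block IGF2 (0.23) had an adjusted p of 0.114. IAPP has no value under the filter at a mean of 50. With 1 library left out, log2 fold changes were 0.15 to 0.22 for INS, -2.09 to -1.63 for IAPP, 0.18 to 0.26 for IGF2, 0.45 to 0.52 for UCN3 and 0.09 to 0.16 for SCT.

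Of all genes, 335 were higher and 223 lower. These counts were 131 and 60 without the variance trend, 162 and 75 with the replicate block, and 133 to 257 and 64 to 179 with 1 library left out. Members of the 9 lists called higher and lower numbered 15 and 5, against 7 and 2 without the variance trend and 7 to 13 and 3 to 6 with 1 library left out. Called neighbours within 250 kb numbered 7, among them IGF2, which is itself a hormone gene and was counted as a neighbour of INS. They numbered 2 without the variance trend, 1 with the replicate block and 1 to 6 with 1 library left out. The cause of these shifts was not tested, beyond fewer samples where a library is left out. The acinar marker CPA1 (-0.01) ranged from -0.0729 to 0.0213 with 1 library left out and changed sign when siNT replicate 2 (0.0183), siNT replicate 3 (0.0213) or siMNX1 replicate 1 (0.00367) was the one. The ductal marker KRT8 (-0.04) ranged from -0.0739 to 0.0079 and changed sign when it was siNT replicate 1. With all other settings the counts stayed within 1.5 times.

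Same-numbered libraries did not deviate together (correlations of -0.0779, -0.0792 and -0.0706), and no library correlated best with its own number. These values show no large deviation shared by number. They cannot show whether same-numbered libraries were handled together, which the labels do not state. The block result is given because the labels number both groups alike. The read depth is unknown, and low normalized counts limit the precision of IAPP most.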
